A study of Mytilus galloprovincialis with 8 samples.

Results

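The transcripts described here were measured by 111 oligonucleotide probes for contigs named cDNA_MGC, whose signal in digestive gland was lower in mussels exposed to the dinoflagellate Prorocentrum lima than in control mussels, while the mean ratio in gill stayed near 0. They were chosen from these data among the 17037 cDNA_MGC probes of an array of 51300 probes. For the choice, the background was subtracted from the median signal of each spot, 50 was added, and the log2 ratio of exposed over control was centred on the median of its array. A member had a ratio under -1.5 in both digestive gland replicates and a mean gill ratio between -0.5 and 0.5. The name cDNA_MGC was read as the normalized cDNA library of control mussels, from the code that the study gives that library, and this reading is an inference. The study lists fewer contigs for that library than there are probes of this name. All ratios of both tissues entered the choice, so they are given below as a description. Where members are counted among limma calls, the count describes the list and does not test it.

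The exposed mussels were adult Mytilus galloprovincialis given 200 cells/ml of P. lima for 24 h, and the control mussels were non-exposed adults. The labels state this dose per ml and the study's methods state it per litre. Both groups had received microalgae (Isochrysis galbana and Tetraselmis suecica) as food. Digestive gland and gill were examined in 2 biological replicates each, and a replicate set RNA pooled from 5 exposed mussels against RNA pooled from 5 control mussels on a 2-colour array and on a second array with the dyes exchanged. The 8 arrays lay on 1 slide with 1 scan, digestive gland in one row of positions and gill in the other, so that tissue and position cannot be told apart. The labels give the dye of 1 digestive gland array as Cy6. Read here as Cy5, that array gave ratios whose correlation with those of the other arrays of the tissue was 0.83 to 0.91 across all probes, which are not independent replicates. Signal well above background in both channels was found for 51.7% to 57.4% of the digestive gland spots and for 37.0% to 39.6% of the gill spots, and no spot was saturated.

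Prorocentrum lima produces okadaic acid (OA), a lipophilic toxin that inhibits serine/threonine protein phosphatases and causes diarrhetic shellfish poisoning in people who eat contaminated bivalves. The digestive gland is the organ in which bivalves digest algae within their cells and in which such toxins mostly accumulate. The gill moves water by its cilia and takes up oxygen. In a normalized cDNA library the abundant transcripts are reduced before sequencing, so that rare transcripts are also read. All libraries behind the probes were made from digestive gland. The files pair each probe with a contig and with no gene name, and the contig names are therefore used. Separate contigs can hold pieces of the same transcript, so that the 111 members need not be 111 genes.

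Among the cDNA_MGC probes, 176 met the condition in digestive gland at any gill ratio. Of these, 57 had a mean gill ratio below -0.5 and 8 had one above 0.5, which left the 111 members. The same limits with the sign in digestive gland reversed were met by 6 cDNA_MGC probes. Probes for contigs named cDNA_MGT, read as the normalized library of exposed mussels, met the falling limits in 39 of 19188 cases and the rising limits in 79. For contigs named mgt200.forw, read as the forward library of the suppression subtractive hybridization (SSH), which enriches transcripts more abundant in exposed mussels, 9 of 15070 probes met the falling limits and 390 the rising ones. The falling probes thus stood mainly under the name read as the control library.

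For all further values the background was corrected with normexp at an offset of 50, followed by loess within arrays. On this scale the members had a median log2 ratio of exposed over control of -2.07 in digestive gland (range -5.92 to -1.30), against -0.02 over all cDNA_MGC probes and -0.00 over all probes. The median was -1.97 in replicate 1 and -2.18 in replicate 2. At this offset the signal of the exposed mussels was 4.21-fold lower in the median member and 2.47-fold to 60.7-fold lower over the members. Of these, 37 were above background in exposed digestive gland on no array and allow only a bound. A further 12 were above background there on 1 to 3 of 4 arrays, so that their fold is in part a bound. The median ratio was -3.40 at an offset of 0 and -4.16 from the processed signals of the scanner. All 111 members had a ratio below -1 on each of the 4 digestive gland arrays, so that no exposed signal reached its control signal in either dye orientation. The fall exceeded 2 on the log2 scale in 62 members, 3 in 14 and 4 in 8. In whole tissue, fewer cells that carry a transcript and less of the transcript per cell cannot be told apart.

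Over the whole array 8.67% of the 51228 probes tested in digestive gland were lower in exposed mussels (limma, adjusted p under 0.05), and 109 of the 111 members were among them, which the choice of members fixed. In gill 0.0293% of the 51282 probes tested were called in either direction, with none of the members among them. Both this count of members and that of all probes depended on the processing, as given below. Over all probes, 1014 were called in gill at an offset of 0 and 2783 on the log2 ratios deposited by the authors. The study, also with limma and an adjusted p under 0.05, reports far more gill probes than were called here. Before adjustment 7318 probes and 24 members had a limma p under 0.05 in gill. The change in digestive gland was lower than the change in gill for 4.69% of the probes, and 107 members were among these. The choice of members fixed this too, and its gill window favoured the absence of members from the gill calls. The median gill ratio of the members was -0.06 (range -0.81 to 0.23), against -0.00 over all probes.

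**Figure D1:**
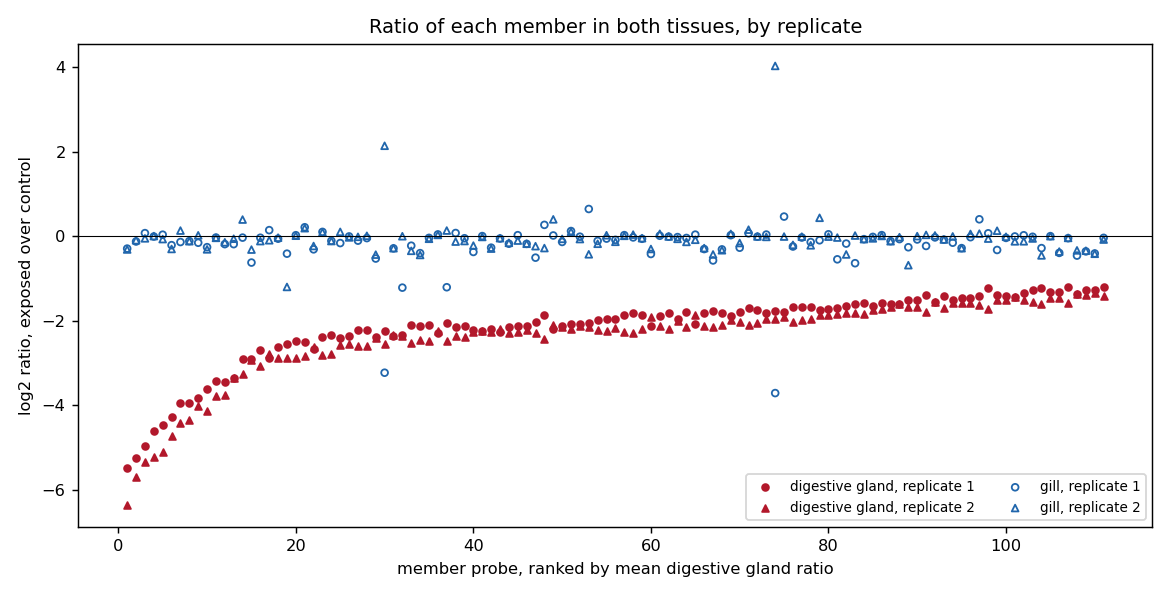
Log2 ratio of exposed over control (vertical axis) of the 111 members, ranked by their mean ratio in digestive gland (horizontal axis), with a filled point for each digestive gland replicate and an open point for each gill replicate. All digestive gland points lie below -1, most gill points lie near 0, and cDNA_MGC_rep_c5856 and cDNA_MGC_rep_c9133 have gill points far from 0 on opposite sides.

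The largest fall was that of cDNA_MGC_c2726. Its normalised signal in digestive gland was 293 and 150 in the exposed replicates, against 13130 and 12347 in the control replicates. The log2 ratios were -5.49 and -6.36 (mean -5.92 ± 0.62, SD, n = 2), a 60.7-fold lower signal in exposed mussels. In gill the probe gave 67.1 and 61.2 in exposed mussels and 82.4 and 76.3 in control mussels, and it was well above background only in the control channel, on 2 of 4 arrays. A signal near 50 is close to the floor that the offset sets, because members not above background on any digestive gland array in exposed mussels had exposed signals of 36.2 to 57.9. The probe was therefore bright in a single one of the 4 kinds of RNA, that of control digestive gland.

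The next largest falls had the same shape. For cDNA_MGC_c2076 the digestive gland signal was 99.9 and 68.3 in exposed mussels, against 3791 and 3562 in control mussels, with log2 ratios of -5.25 and -5.70. For cDNA_MGC_c9464 it was 70.8 and 46.9 in exposed mussels, against 2219 and 1907 in control mussels, with log2 ratios of -4.97 and -5.35. In neither probe did a gill channel stand well above background on any array, whereas the exposed digestive gland channel did so on all 4. By the mark of the scanner software the transcripts were thus still measured in exposed digestive gland, at a level close to the floor. The replicate 2 signal of cDNA_MGC_c9464 there lay within the 36.2 to 57.9 of members above background on no array.

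For cDNA_MGC_c1119, spotted 2 times on each array, the digestive gland signal was 59.0 and 36.9 in exposed mussels, against 1447 and 1373 in control mussels. For cDNA_MGC_c5963 it was 58.4 and 36.6 in exposed mussels, against 1300 and 1263 in control mussels. For cDNA_MGC_c3370 it was 164 and 106 in exposed mussels, against 3191 and 2842 in control mussels. Their mean log2 ratios were -4.92 ± 0.42, -4.79 ± 0.45 and -4.51 ± 0.33 (SD, n = 2 each). In each of the 3 the exposed and control signals were far apart in both replicates. The exposed replicate 2 signals of cDNA_MGC_c1119 and cDNA_MGC_c5963 also lay within the range of members above background on no array. Of the 8 members with a fall beyond 4, which further include cDNA_MGC_c348 and cDNA_MGC_c3359, 6 gave no gill signal above background in either channel and 7 were above background in exposed digestive gland on all 4 arrays.

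Of the 3 further members taken for their control digestive gland signal, each remained well measured in exposed mussels. The signal of cDNA_MGC_rep_c8901 was 303 and 279 in exposed digestive gland, against 3092 and 2868 in control digestive gland, with a log2 ratio of -3.35 in replicate 1 and -3.36 in replicate 2. The signal of cDNA_MGC_rep_c10325 was 841 and 781 in exposed digestive gland, against 2682 and 3040 in control digestive gland, with log2 ratios of -1.67 and -1.96. Both lay near the floor in gill, at 66.3 and 76.8 in exposed mussels and 75.7 and 80.2 in control mussels for cDNA_MGC_rep_c8901, and at 70.5 and 85.4 in exposed mussels and 77.8 and 99.3 in control mussels for cDNA_MGC_rep_c10325. The third, cDNA_MGC_rep_c15359, was also measured in gill and is described with the members measured there.

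**Figure D2:**
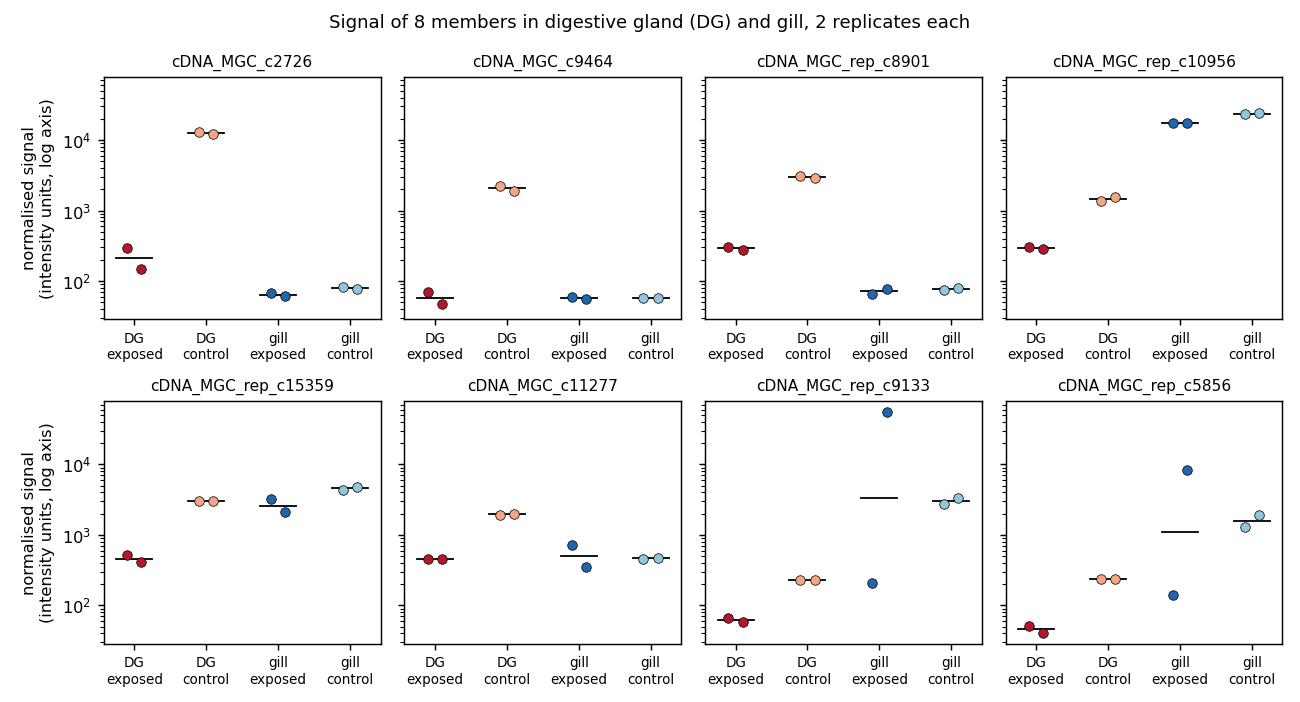
Normalised signal (intensity units, log axis) of 8 members in exposed and control digestive gland (DG) and in exposed and control gill, with a point for each replicate and a bar at their geometric mean. In each panel the exposed digestive gland points lie below the control digestive gland points, gill signal lies near the floor in cDNA_MGC_c2726, cDNA_MGC_c9464 and cDNA_MGC_rep_c8901 and above digestive gland in cDNA_MGC_rep_c10956, and the exposed gill points lie far apart in cDNA_MGC_rep_c9133 and cDNA_MGC_rep_c5856.

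Whether the transcripts were still measured in exposed digestive gland varied among the members. All 111 were well above background in the control channel on the 4 digestive gland arrays. In the exposed channel 62 were so on all 4 arrays, 12 on 1 to 3 of them and 37 on none. For these 37 the exposed signal gives only a bound, taken on each array from the lowest signal well above background or from the probe itself where that was higher, and their signal was at least 2.47-fold to at least 7.28-fold lower in exposed mussels. The largest of these bounds was that of cDNA_MGC_rep_c10478, at 48.8 and 36.2 in exposed digestive gland, against 318 and 304 in control digestive gland. For the 12 members the same bound applies on the arrays where the exposed channel was not above background. Over the cDNA_MGC probes as a whole, 190 were above background on all 4 digestive gland arrays in control mussels and on none in exposed mussels, against 104 the other way. The counts were 57 and 381 among the cDNA_MGT probes, and 5 and 673 among the mgt200.forw probes.

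The condition on gill was met mostly by probes with little gill signal. Of the members, 54 (48.6%) were not well above background in either gill channel on any array, 18 only in the control channel, 7 only in the exposed channel, 17 in both but not on all arrays, and 15 in both on all 4 arrays. Of the 9375 cDNA_MGC probes above background on all 4 digestive gland arrays in control mussels, 1123 (12%) had no gill signal in either channel, and 6362 (67.9%) had it in both channels on all 4 arrays. The difference between these shares was not tested. A ratio between channels that are both near the floor is near 0 whatever the transcript does, so that a gill ratio near 0 was a measured ratio only in part of the members. In 23 members control digestive gland was the only kind of RNA with signal above background.

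The 18 members above background only in control gill had a median gill ratio of -0.29, and the 7 above background only in exposed gill had one of 0.11. The sign of both is set by how these classes are defined, so that nothing is read from it. Of all members, 13 were above background on at least 3 of 4 arrays in control gill and on none in exposed gill. The reverse was found in 1. The same count was not made over all probes, so that nothing particular to the members is read from it. In cDNA_MGC_c9593, for example, the gill signal was 86.4 and 79.1 in exposed mussels, against 115 and 106 in control mussels, with log2 ratios of -0.41 and -0.42. In cDNA_MGC_rep_c8118 it was 75.3 and 69.2 in exposed mussels, against 92.1 and 84.3 in control mussels, with a log2 ratio of -0.29 in each replicate. In both probes the 4 gill signals lay close together.

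The ratios of these 18 members depended on the offset. At a normexp offset of 0 their median was -1.42, with 15 of 18 below -1, and on the log2 ratios deposited by the authors it was -0.77. In the 54 members with no gill signal the median was -0.04 at the offset of 50 and -0.26 at 0, and in the 15 measured throughout gill it was -0.36 and -0.48. The median of these 15 was -0.05 when each array was centred on its median in place of loess. At the offset of 0, 18 members were called lower and 1 higher in exposed gill (limma, adjusted p under 0.05), where 0.766% of all probes tested were called lower and 1.21% higher. On the authors' log2 ratios 25 members were called lower and 0 higher by the same test. Of the 51282 probes tested there, 1146 were called lower and 1637 higher. The gill medians of the members thus moved with the offset and with the normalization.

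**Figure D3:**
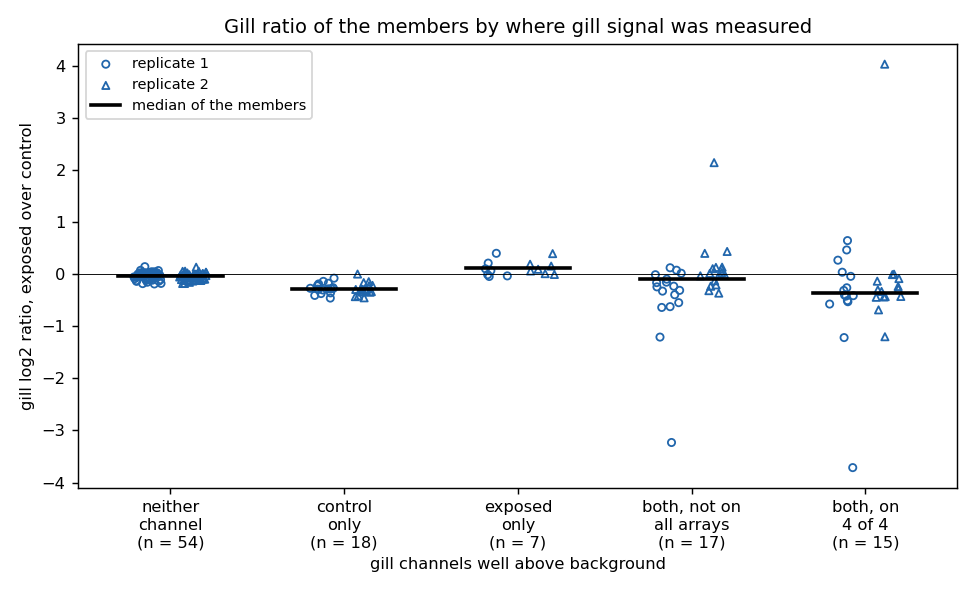
Log2 ratio of exposed over control in gill (vertical axis) of the 111 members, grouped by the gill channels in which the probe was well above background (horizontal axis), with a point for each replicate and a line at the median of the members' means. The points lie close to 0 in the 54 members with no gill signal, below 0 in the 18 measured only in control gill, a class that sets this sign, and are most widely spread where both channels were measured.

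The 15 members measured throughout gill show transcripts that both tissues carried. The signal of cDNA_MGC_rep_c10956 was 307 and 284 in exposed digestive gland, against 1351 and 1568 in control digestive gland, with log2 ratios of -2.14 and -2.46. In gill it was 17744 and 17549 in exposed mussels, against 23465 and 23914 in control mussels, with log2 ratios of -0.40 and -0.45. In digestive gland the exposed replicates lay below the control replicates under either normalization. In gill this depended on the normalization, since the ratios used for the choice, centred on the array median, were -0.29 and 0.16.

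For cDNA_MGC_rep_c15359 the signal was 515 and 413 in exposed digestive gland, against 3023 and 3040 in control digestive gland. In gill it was 3207 and 2110 in exposed mussels, against 4277 and 4857 in control mussels, with log2 ratios of -0.42 and -1.20. By the ratios used for the choice its gill mean was -0.44, inside the window, whereas after loess it was -0.81. For cDNA_MGC_c4271 the signal was 172 and 141 in exposed digestive gland, against 701 and 687 in control digestive gland, and 630 and 744 in exposed gill, against 896 and 877 in control gill. After loess the exposed gill replicates lay below the control gill replicates in these probes, as they did in 10 of the 15, but with median centring in 5 of the 15, and by the ratios used for the choice cDNA_MGC_c4271 had -0.45 and 0.36 in gill.

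In cDNA_MGC_c11277 the gill replicates moved apart. Its signal was 457 and 449 in exposed digestive gland, against 1915 and 1993 in control digestive gland, a fall that was alike in both replicates. In gill it was 721 and 349 in exposed mussels, against 462 and 470 in control mussels, so that the exposed gill replicates lay on opposite sides of the control ones.

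Such a split was widest in cDNA_MGC_rep_c9133 and cDNA_MGC_rep_c5856. For cDNA_MGC_rep_c9133 the gill signal was 208 in exposed replicate 1 and 54508 in exposed replicate 2, against 2736 and 3345 in the control replicates, with log2 ratios of -3.71 and 4.03. For cDNA_MGC_rep_c5856 it was 139 and 8439 in exposed gill, against 1304 and 1919 in control gill, with log2 ratios of -3.23 and 2.14. By the ratios used for the choice their gill means, of replicates on opposite sides of 0, were 0.43 and -0.29, and after loess they were 0.16 and -0.55. In digestive gland their replicates were close, at 66.4 and 58.2 in exposed mussels and 226 and 228 in control mussels for cDNA_MGC_rep_c9133, and at 50.6 and 41.0 in exposed mussels and 240 and 240 in control mussels for cDNA_MGC_rep_c5856. These are the 2 members not called in digestive gland, where the fit takes the spread of a probe from both tissues.

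By the ratios used for the choice, 4 members had gill replicates beyond 0.5 in size with opposite signs, namely these 2, cDNA_MGC_c15628 and cDNA_MGC_c9653, and 18 had at least 1 gill replicate beyond 0.5 in size. After loess, cDNA_MGC_c15628 had gill signals of 365 and 838 in exposed mussels, against 849 and 840 in control mussels, with log2 ratios of -1.22 and -0.00. For cDNA_MGC_c9653 the gill signals were 90.7 and 301 in exposed mussels, against 210 and 275 in control mussels. In all 4 the exposed gill signal was lower in replicate 1 than in replicate 2, and the exposed replicates of digestive gland lay close together. These 4 are also the members for which a difference between the tissues in the change was not called.

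The members were also set against their level in the other tissue of control mussels. Control digestive gland RNA entered the choice, so this too is a description. The log2 difference of control digestive gland minus control gill had a median of 1.64 over the members (range -4.02 to 7.33), against -0.07 over all probes, with control digestive gland above control gill in both replicates in 104 members and below it in both in 6. Over the whole array 19.7% of the 51210 probes were higher in control digestive gland than in control gill and 32.3% were lower (limma, adjusted p under 0.05), and 102 members were among the higher and 6 among the lower. With each channel scaled by its 75th percentile the median of all probes moved to -1.26 and that of the members to 0.96, which left the members 2.22 above all probes, with 82 members called higher and 14 lower, where 15.9% of all probes were called higher and 77.8% lower. Most members thus stood higher in control digestive gland than in control gill, relative to all probes, under either scaling. The choice of members favoured this, since all 111 were well above background in control digestive gland. The same shares were not taken over other probes with that detection, so that nothing particular to the members is read from them.

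The largest tissue difference was that of cDNA_MGC_c2726, at 7.33 ± 0.07 (standard error of the limma fit, which borrows from all probes). Its control gill signal lay near the floor, at 82.4 and 76.3, and was well above background on only 2 of 4 arrays. For the 61 members not well above background in control gill on any array, the measured gill level gives only a bound, and cDNA_MGC_c2076 was at least 52.3-fold, cDNA_MGC_c14506 at least 39.3-fold and cDNA_MGC_rep_c8901 at least 38.2-fold higher in control digestive gland. The 6 members lower in control digestive gland than in control gill were cDNA_MGC_rep_c10956 (log2 difference -4.02), cDNA_MGC_rep_c9133 (-3.74), cDNA_MGC_rep_c5856 (-2.72), cDNA_MGC_c15628 (-0.68), cDNA_MGC_rep_c15359 (-0.59) and cDNA_MGC_c4271 (-0.35). These 6 include 3 of the 4 members whose gill replicates split.

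**Figure D4:**
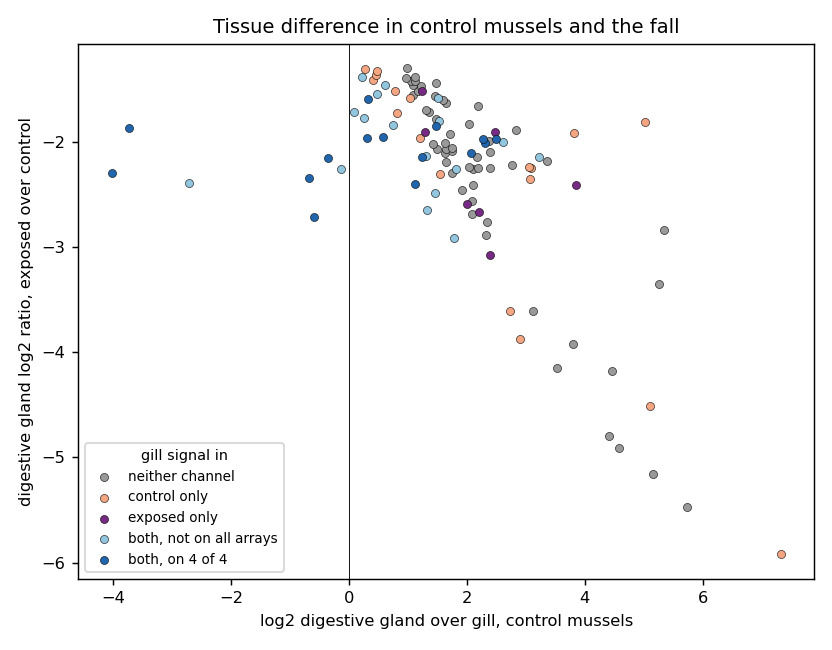
Log2 ratio of exposed over control in digestive gland (vertical axis) against the log2 difference of digestive gland over gill in control mussels (horizontal axis) for the 111 members, coloured by the gill channels well above background. Both axes share the control digestive gland signal. All but 7 members lie to the right of 0, and the 8 falls beyond 4 lie at differences of 3.53 or more.

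The members were set beside the 39 cDNA_MGT probes that met the same limits. In exposed digestive gland 37 of the 111 members (33.3%) and 12 of the 39 cDNA_MGT probes (30.8%) were above background on no array. In gill 54 members (48.6%) and 15 cDNA_MGT probes (38.5%) had no signal in either channel, and 15 members (13.5%) and 8 cDNA_MGT probes (20.5%) had signal in both channels on all arrays. A higher level in control digestive gland than in control gill was called for 102 members and 34 cDNA_MGT probes. Contig names with the prefix rep_c, whose meaning is not given in the sources used here, made up 37 of the 111 members (33.3%) and 6060 of the 17037 cDNA_MGC probes (35.6%). None of these differences in share was tested.

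The members nearest to the limit of -1.5 were cDNA_MGC_rep_c15222, with ratios used for the choice of -1.503 and -1.72, cDNA_MGC_c3251 with -1.51 and -1.86, and cDNA_MGC_rep_c7200 with -1.52 and -1.85. Just outside it were cDNA_MGC_c14625 with -1.82 and -1.48, cDNA_MGC_rep_c7161 with -1.83 and -1.48, and cDNA_MGC_c9477 with -1.56 and -1.48. After loess these 6 had mean digestive gland ratios of -1.80 to -1.39, so that the limit separates probes of like ratio. With a limit of -1 in place of -1.5 the choice gave 263 probes and with -2 it gave 59. With 25, 100 and 10 added to the signal in place of 50 it gave 152, 81 and 216 probes, of which 90, 67 and 65 were among the 111. Applied to the ratios after normexp and loess, the same limits gave 114 probes, of which 87 were among the 111. When each gill replicate had to lie within the window it gave 93.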

How the data were processed

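The authors hybridized digestive gland and gill RNA of exposed and control mussels and deposited, for each array, scanner intensities from Agilent Feature Extraction 10.7.3.1 (median signal and background of each spot, processed signals, quality marks). Their deposited log2 table (red over green) served as an alternative only. The analysis was run in R 4.3.3 with limma 3.58.1: normexp background correction (offset 50) of the median signal, loess within arrays on spots that are not controls, outlier spots left out, spots of a probe averaged, ratios set as exposed over control, and each array averaged with its swap. A ratio at a low signal is drawn towards 0 by the offset. The 4 averages entered 1 fit with a mean per tissue and 2 residual degrees of freedom, with Benjamini-Hochberg adjustment at 0.05 over all probes. Levels came from the same arrays after Aquantile normalization between arrays. The fits were tested on simulated data. Well above background was taken from the scanner software, for all spots of a probe. The number of arrays limits the precision, and a p-value measures only the spread between 2 pools per tissue.

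Named members were the 6 with the lowest digestive gland ratio, the 3 brightest others in control digestive gland, the 3 nearest to the limit with the 3 nearest outside it, and the 6 brightest in gill among those measured there throughout. Others were named after their values were seen. The members and lists were chosen with earlier results of these data known. Alternatives changed the background correction, normalization, filters, offsets, limits and the arrays used, and left out each replicate. Probes of other libraries that share sequence with a member were not analysed here.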

Additional observations from a re-analysis of the deposited data

Results flagged for a closer look

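Among 34 groups of 4 arrays of the named members, 3 held an array far from the others. The limit used gives about 1 in 20 such groups by chance for 4 independent values. The 4 arrays here are 2 replicates with a dye swap each, so that this rate does not apply. In gill the ratio of cDNA_MGC_c5963 was 0.13 on the replicate 1 array with exposed RNA in red, against -0.08, -0.07 and -0.06 on the others. On the same array cDNA_MGC_rep_c10325 had -0.0560, against -0.23, -0.22 and -0.22. In digestive gland cDNA_MGC_rep_c15359 had -2.29 on the replicate 1 array with control RNA in red, against -2.90, -2.86 and -2.81. Over the whole array the change was lower in digestive gland than in gill for 2401 probes (limma contrast, adjusted p under 0.05).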

How the results depend on the processing

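The digestive gland ratio was below 0 in 187 of 187 alternatives for the 17 named members. These members were chosen for a fall on the same arrays, so that this sign was largely set in advance. The gill ratio of these members, mostly near 0 at the offset of 50, took the other sign in 14 of 187 alternatives, in 6 members. For cDNA_MGC_rep_c9133 it was 0.16 and took -0.36 at an offset of 0, and for cDNA_MGC_c11277 it was 0.11 and took -0.43 without gill replicate 1. Some gill ratios fell further without a change of sign. At an offset of 0 and from the processed signals, cDNA_MGC_c2726 (-0.31) took -1.68 and -2.68, and cDNA_MGC_c3370 (-0.26) took -1.44 and -2.62. Under these settings cDNA_MGC_rep_c10325 (-0.18) took -0.77 and -1.76, whereas cDNA_MGC_c9464 took 0.11 and -0.09 and cDNA_MGC_c1119 took -0.02 and -0.04. The medians over the members moved with the background. In digestive gland the median was -3.40 at a normexp offset of 0, -2.39 without background subtraction, -2.78 on the authors' table and -4.16 from the processed signals of the scanner. In gill it was -0.40, -0.11, -0.18 and -0.37 under these 4 settings, -0.0403 with plain subtraction plus 50, -0.10 with median centring, and -0.0730 to -0.0616 with a replicate left out. The control tissue difference was 3.30 at offset 0, 2.06 without background subtraction, 1.80 with plain subtraction plus 50, 4.23 with processed signals, 1.56 without the array named Cy6, 1.40 with quantile normalization, 0.96 with the 75th percentile and 1.63 to 1.67 with a replicate left out.

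Of the counts over all probes, digestive gland (9106) was 5333 at offset 0, 2376 (without digestive gland replicate 2) to 6757 with a replicate left out and 14477 with 8 arrays entered separately. Gill (15) was 1014 at offset 0, 605 without background subtraction, 2783 on the authors' table, 444 without the array named Cy6, 1013 over probes above background in at least 1 channel, 4075 with 8 arrays and, by limma, 0 to 30 (without gill replicate 2) with a replicate left out (6143 to 7961 at an unadjusted p under 0.05 where it was 0). The difference between the tissues (4979) was 2360 at offset 0, 833 (without gill replicate 2) to 1847 with a replicate left out, 2284 over probes above background and 11028 with 8 arrays. The control tissue count (26659) was 48001 with the 75th percentile, of which 17.0% were higher in digestive gland against 37.9% before. The choice gave 263 and 59 probes at limits of -1 and -2, 216 at an addition of 10, and 15 among probes measured throughout gill. With the replicate number as a block, the difference between the tissues was called for 4698 probes (106 members), and the deviations of same-numbered samples correlated at 0.07 to 0.21 over 2 pairs, which is too few to show whether same-numbered digestive gland and gill pools came from the same mussels. The labels do not say so. The offset of 10, the choice by each gill replicate, the classes of gill signal and the scalings of the control count were added after the data had been seen. Causes were not tested.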
